A study of Homo sapiens with 24 samples.

Results

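The proteins of the cytosolic ribosome are encoded by genes named RPL for the large subunit and RPS for the small subunit, and the mRNA of these genes was measured here in 4 head and neck squamous cell carcinoma lines made resistant to erlotinib, an inhibitor of the EGFR kinase. Members were the array probes whose only gene symbol was RPL or RPS with a number and an optional letter, or RPLP0, RPLP1, RPLP2 or RPSA, with the RPS6K kinases and pseudogene symbols left out. Of 121 probes with such a symbol, from 73 genes, 116 probes from 70 genes gave a detection p under 0.05 on at least 3 of the 24 arrays. They were 116 of the 19171 probes and 70 of the 14077 genes tested. The large subunit was covered by 72 probes of 44 genes and the small subunit by 44 probes of 26 genes. A single probe measured 36 of the genes, and 34 genes had up to 4 probes each. The 5 probes that did not pass were left out, and 104 of the 116 were detected on all 24 arrays.

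SCC-25 and Cal-27 are lines of tongue carcinoma, FaDu is a pharynx line and SQ20B a larynx line. Each line gave 3 arrays of erlotinib-sensitive parental cells and 3 arrays of erlotinib-resistant cells, in 8 groups. All 24 samples, parental and resistant, had been in 0.01% DMSO, the vehicle of the drug, for 48 h when they were harvested. Resistant cells were kept in the medium of their line with erlotinib added, and the sources used here do not say whether erlotinib was also there during the 48 h. Parental Cal-27, FaDu and SQ20B grew in DMEM with serum, and SCC-25 in a mixture of DMEM and F12 with hydrocortisone. Nothing in the labels says that a line was made resistant more than once, so resistance and any other difference between its cultures cannot be told apart. They also do not say that replicates were separate cultures, so the p-values measure the spread between arrays, which may be technical.

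Ribosomal proteins join the ribosomal RNAs in the nucleolus and the cytoplasm, and most of them are needed for the maturation of their subunit. Their mRNAs are among the most abundant of a cell, and most of them start with a cytosine and a run of pyrimidines, the 5′ TOP element, through which mTORC1 and LARP1 control their translation and stability. MYC raises the transcription of the same genes, and growth factor receptors such as EGFR act on both routes.

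The start of the transcript is the element that these genes share, and it is shown for the members on which the results below turn. RefSeq windows on GRCh38.p14 were found for 59 of the 70 member genes, 68 windows in all, each with 250 bases before and 50 after an annotated start. Each line gives 15 bases before and the first 15 bases of the transcript, 5′ to 3′ on the strand of the gene, and capitals mark an unbroken run of C and T that opens at the annotated start with C and has at least 4 further pyrimidines. RPS24, RPL36A, RPL29 and RPS21 carry such a run and include some of the largest decreases in SQ20B.
RPS24: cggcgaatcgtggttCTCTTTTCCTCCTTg
RPL36A: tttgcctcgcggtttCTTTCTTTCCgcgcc
RPL29: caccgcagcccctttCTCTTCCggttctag
RPS21: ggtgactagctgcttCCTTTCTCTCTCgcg
RPS7, RPS26, RPS15 and RPL10A also fell there, and their annotated first bases do not open such a run.
RPS7: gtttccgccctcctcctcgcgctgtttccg
RPS26: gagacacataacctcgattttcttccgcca
RPS15: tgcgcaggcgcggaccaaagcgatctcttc
RPL10A: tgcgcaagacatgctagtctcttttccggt
RPS29 ILMN_2298818 and RPS27 ILMN_1696839 rose in several lines, RPS23 differed most between parental lines among the single-probe genes, and RPL17 fell in SCC-25. The other RPS29 probes were not called higher in Cal-27 or SQ20B.
RPS29: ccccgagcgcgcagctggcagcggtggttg
RPS27: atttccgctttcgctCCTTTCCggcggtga
RPS23: tcctgcggtgcttctCTCTTTCgctcaggc
RPL17: cctctttccctaagcagcctgaggtgagtg
The windows are chr10:78033848-78033877 for RPS24, chrX:101390996-101391025 for RPL36A, chr3:51995881-51995910 for RPL29 and chr20:62387088-62387117 for RPS21. RPS7 has chr2:3575245-3575274, RPS26 chr12:56041903-56041932, RPS15 chr19:1438381-1438410 and RPL10A chr6:35468386-35468415. RPS29 has chr14:49598696-49598725, RPS27 chr1:153990747-153990776, RPS23 chr5:82278340-82278369 and RPL17 chr18:49492451-49492480. RPL29, RPS29, RPS23 and RPL17 are on the minus strand and the others on the plus strand.

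A start with C and at least 4 further pyrimidines was found in 42 of the 68 member windows, or 61.8%, and in 4.07% of the 35116 windows of the whole table. The 7-base motif CCGGAAG, searched on both strands of the window, was in 36.8% of the member windows and in 10.3% of all windows. In SQ20B the 63 probes of the 42 genes with such a start had a median log2 change of -0.239 and 32 were lower. The 37 probes of the 17 genes with no such start listed had a median of -0.289 and 20 were lower. Over all tested probes the SQ20B median was -0.0138 and 25.9% were lower. These are descriptions of annotated starts, which can differ from the starts used in these cells.

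Between 75.1% and 82.4% of the tested probes were detected per array, and the range was 81.8 to 82.4% in resistant SQ20B against 75.1 to 76% in parental SQ20B. Of 6 squamous epithelial marker genes on the array, 5 were detected on all arrays (KRT5, SFN, CDH1, EPCAM and PERP). None of the endothelial, fibroblast or melanocyte markers was detected on all arrays, and of the leukocyte markers CD14 was. In these bulk samples, fewer cells and less RNA per cell cannot be told apart.

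SQ20B had the most called ribosomal protein probes of the 4 lines, and also the most called probes over all those tested. A probe was called higher or lower when limma's moderated test gave an adjusted p under 0.05 over all 19171 probes. In resistant SQ20B, 59 of the 116 probes were lower and 10 higher, where 25.9% of all tested probes were lower and 25.9% higher, 51.8% in either direction. The 59 lower probes are 50.9% of the members. The median log2 change of the members, resistant minus sensitive, was -0.245, against -0.0138 over all tested probes. The subunits moved alike, with 37 of 72 large-subunit probes and 22 of 44 small-subunit probes lower. At the level of genes, 41 of 70 had at least 1 lower probe and 8 had at least 1 higher probe, which was not counted over all tested genes. With the mean of a gene's probes 41 of the 70 were lower and 8 higher. Of all tested genes 53.7% were called in that setting, in either direction. The share of the summed bead signal of the tested probes that fell on members was 5.34 to 5.53% on the 3 resistant SQ20B arrays and 6.43 to 6.66% on the 3 parental ones, and the ranges did not overlap. They did not overlap in SCC-25 and Cal-27 either, where the share was higher in resistant cells. It was 6.1 to 6.19% against 5.75 to 5.81% in SCC-25, and 5.81 to 5.87% against 5.41 to 5.58% in Cal-27. In FaDu the ranges overlapped. With each array scaled to its median, the median of all tested probes in SQ20B was itself -0.221 and that of the members -0.696, with 99 members lower and 3 higher. With cyclic loess normalization the member median was -0.126, with 44 lower and 20 higher. Of all tested probes 57.7% were called under median scaling and 51.6% with cyclic loess, in either direction.

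**Figure D1:**
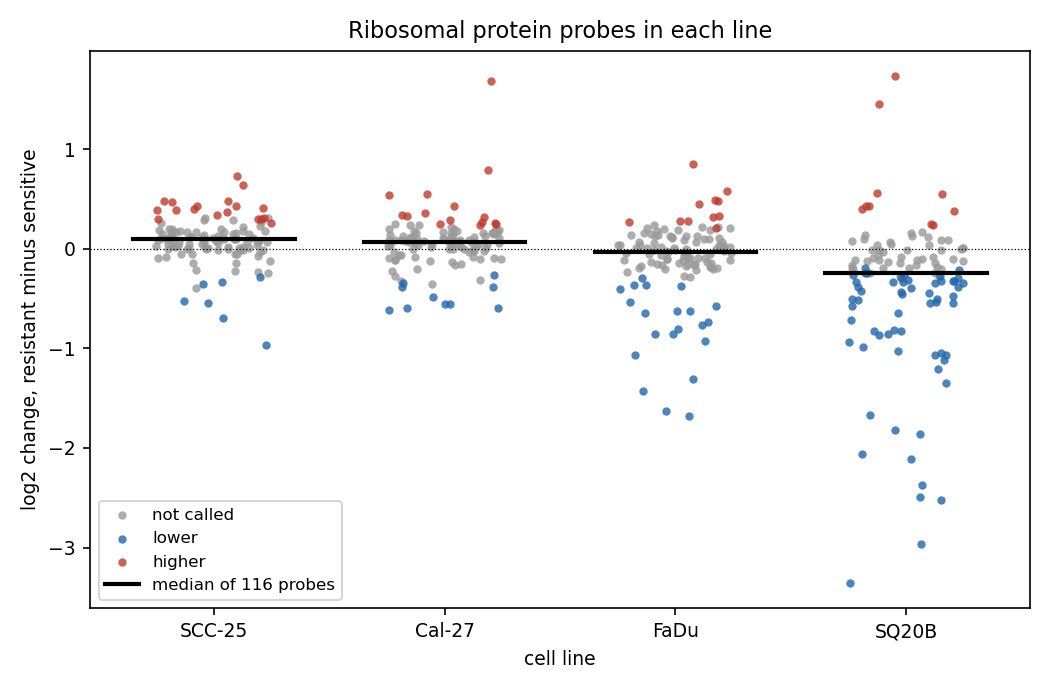
Log2 change between resistant and sensitive cells (vertical axis) of each of the 116 ribosomal protein probes in the 4 lines, coloured by limma's call at an adjusted p under 0.05, with the median as a bar. The SQ20B points reach from -3.35 to 1.73 with their median at -0.245, and the SCC-25 points from -0.97 to 0.73 with their median at 0.0972.

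Among the small-subunit members of SQ20B the largest decrease was at RPS24, a protein of the small subunit body whose gene is mutated in some families with Diamond-Blackfan anaemia. Its probe ILMN_2399893 gave normalized log2 intensities of 10.24, 10.26 and 10.36 on the parental arrays and 6.83, 7.02 and 6.97 on the resistant arrays. The groups were far apart, with a log2 change of -3.35 ± 0.09 (SE, n = 3 per group), 10.2-fold lower, and an adjusted p of 1.12e-11 in limma. The second probe of RPS24, ILMN_1656625, read 13.85, 13.85 and 13.87 in parental cells and 13.72, 13.67 and 13.77 in resistant cells, a change of -0.14 that was not called.

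RPS7, another gene of Diamond-Blackfan anaemia whose protein can also bind MDM2, fell on both of its probes. ILMN_2070072 went from 7.22, 7.27 and 7.28 to 4.93, 4.49 and 4.87, a log2 change of -2.50 ± 0.14 with limma's adjusted p at 1.54e-08, and it was detected on 2 of the 3 resistant arrays. ILMN_1750722 went from 7.75, 7.86 and 8.0 to 6.05, 6.25 and 6.29, a change of -1.67 ± 0.13. No resistant array of either probe reached a parental one, which for ILMN_2070072 was a condition for naming it.

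RPS26, which lines the path of the mRNA upstream of the start codon, fell on ILMN_1755664 by 2.11 on the log2 scale, from 6.86, 6.65 and 6.68 to 4.52, 4.77 and 4.57, with 1 of the 3 resistant arrays above background. Its other probe ILMN_2209027 fell by 0.94 on the log2 scale with limma's adjusted p at 6.15e-06. RPS21, a small eukaryote-specific protein needed for the maturation of 18S RNA, was measured by 1 probe with 10.23, 10.33 and 10.41 in parental and 8.39, 8.60 and 8.40 in resistant cells. The change of RPS21 was -1.86 ± 0.11 (limma's adjusted p = 1.49e-08), and the 2 groups did not overlap. RPS15, a protein of the small subunit head near the tRNAs, changed by -1.82 on ILMN_2219131 and by -0.47 on ILMN_2219134, both called, and by -0.14 on ILMN_2046856, which was not called. RPS15A, whose relatives bind the central domain of the small-subunit RNA, changed by -1.20 on ILMN_2255310 and by -0.27 on ILMN_1787949, both called, and by -0.16 on ILMN_2337241, which was not.

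On the large subunit the largest decrease in SQ20B was at RPL36A, whose protein touches the end of the tRNA in the exit site. Its probe ILMN_2112811 read 8.13, 8.25 and 8.12 on parental arrays and 5.21, 5.58 and 4.82 on resistant arrays. All 3 resistant arrays lay far below the parental ones, with a log2 change of -2.96 ± 0.16 and limma's adjusted p at 1.18e-08. The other RPL36A probe, ILMN_1781137, was above background on no SQ20B array and gives no fold.

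RPL29, a small basic protein of the large subunit that is specific to eukaryotes, fell on both probes. ILMN_1737517 read 7.11, 7.16 and 7.20 in parental cells and 4.79, 4.86 and 4.70 in resistant cells, a change of -2.37 ± 0.14 with limma's adjusted p at 2.1e-08. ILMN_1771051 read 7.06, 7.22 and 7.24 in parental cells and was not above background on any resistant array, which gives at least 5.31-fold lower signal (limma's adjusted p = 2.82e-09), taking the lowest detected signal of each resistant array as the floor. Both probes thus separate the groups completely, which was a condition for naming them.

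RPL6, a large-subunit protein that lies on the solvent side, fell by 2.06 on the log2 scale on ILMN_1717490, from 9.88, 9.88 and 9.85 to 7.81, 7.82 and 7.80, with limma's adjusted p at 5.77e-10. Its probes ILMN_1712155 and ILMN_1690494 changed by -0.44 and -0.33, both called in the same direction, and the second had a change of 0.0261 under cyclic loess. RPL10A, the protein of the L1 stalk that guides leaving tRNAs, changed by -1.35 on the log2 scale on ILMN_1808041 and by -0.34 on ILMN_2154566. RPL34 changed by -1.07 and -0.85, RPL13 by -1.04 on ILMN_1709039, and RPL36 by -1.12 on ILMN_1771462. The other probes of RPL13 (ILMN_2413278, -0.01) and RPL36 (ILMN_1685088, 0.14, or -0.389 under median scaling) were not called. Smaller decreases were called at RPL14 (-0.57 and -0.55), RPL7A (-0.53), RPL24 (-0.51) and RPS3 (-0.54), a protein of the mRNA entry site.

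Of the 10 higher probes in SQ20B, RPL37 had the largest increase. RPL37, a zinc-binding large-subunit protein, read 7.42, 7.22 and 7.19 on ILMN_1800796 in parental cells and 8.94, 9.16 and 8.94 in resistant cells. The change was 1.73 ± 0.10 with limma's adjusted p at 2.37e-08, and its other probe ILMN_2191634 was above background on 1 of the 6 SQ20B arrays. RPS29, a zinc-binding protein of the small subunit head, rose on ILMN_2298818 from 7.09, 6.96 and 6.99 to 8.57, 8.48 and 8.34, a change of 1.45 ± 0.12. Its probe ILMN_2415722 fell by 0.38 on the log2 scale at the same time, so RPS29 was the 1 gene whose probes were called in opposite directions. RPS23, a protein of the decoding centre, rose by 0.43 ± 0.09 (limma's adjusted p = 0.00112). The 3 probes of RPS27, a zinc-finger protein, were higher by 0.40, 0.43 and 0.55 in log2, and under median scaling the first 2 were at -0.114 and -0.0862.

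**Figure D2:**
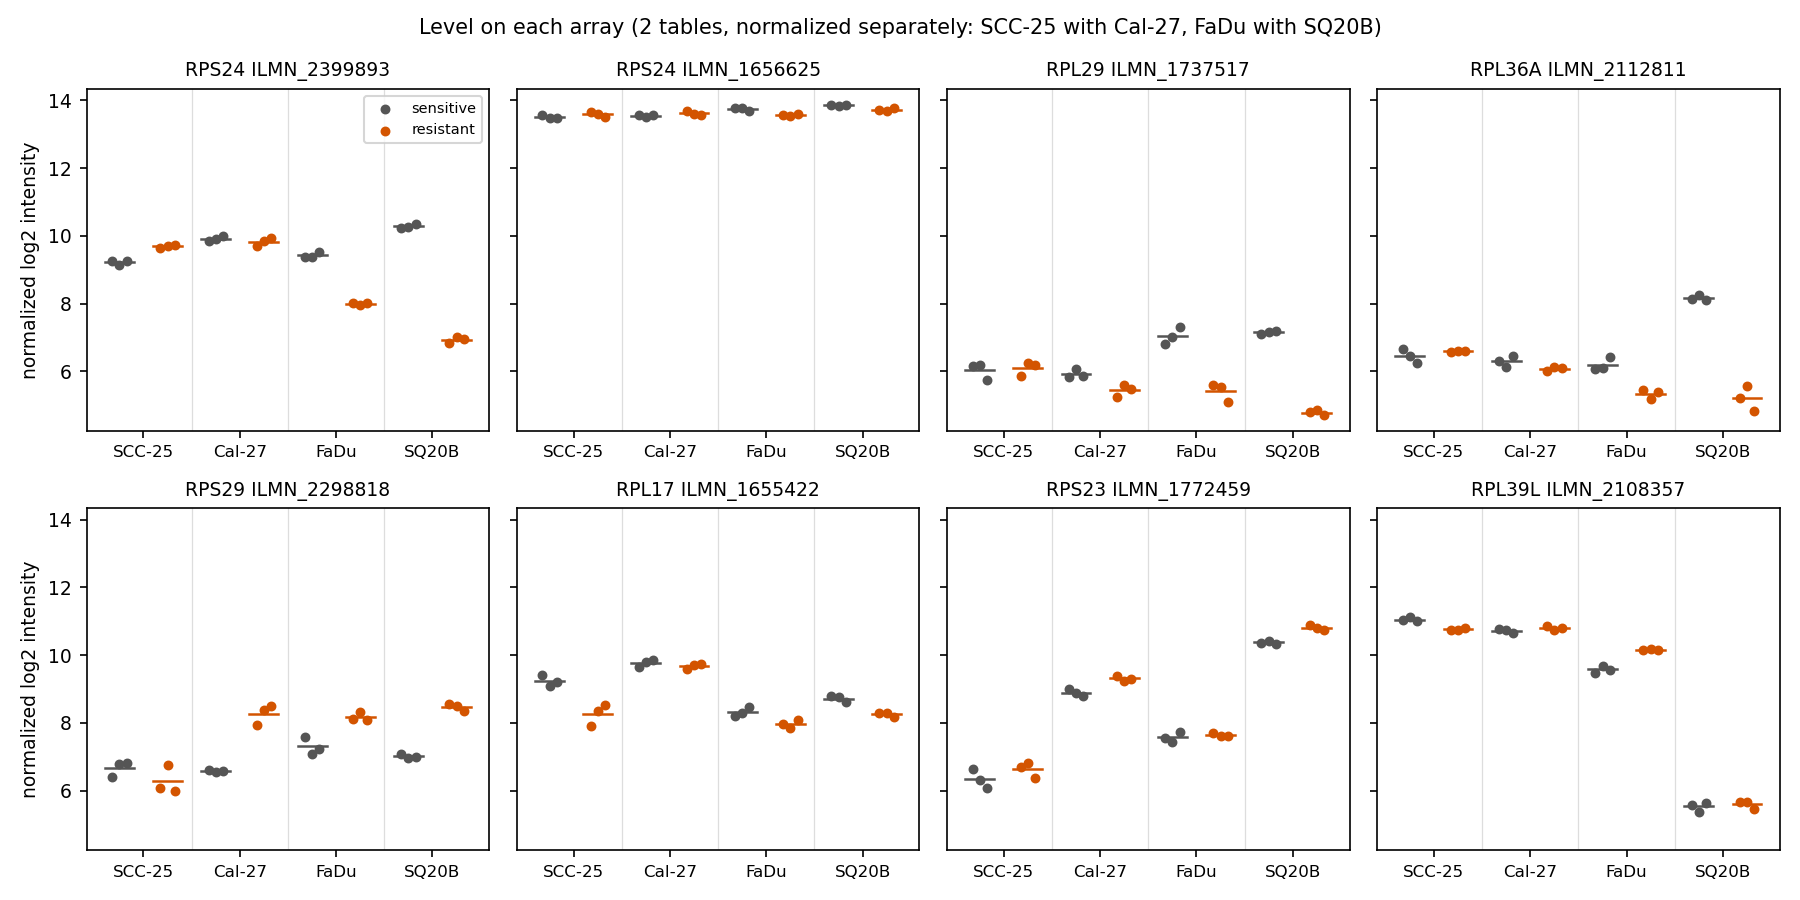
Normalized log2 intensity (vertical axis) of 8 probes of 7 ribosomal protein genes on each of the 24 arrays, with parental cells in grey, resistant cells in orange and group means as bars. The 2 tables (SCC-25 with Cal-27, FaDu with SQ20B) were normalized separately, so levels should be read within a table. RPS24 ILMN_2399893 lies between 10.24 and 10.36 in parental and 6.83 and 7.02 in resistant SQ20B while RPS24 ILMN_1656625 stays between 13.67 and 13.87.

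The size of the change in SQ20B differed between probes of the same gene. Of the 34 member genes with more than 1 probe, 12 were lower on every probe and 1 was higher on every probe. Another 16 were called on some probes only, 1 had opposite calls and 4 had none. This split was not counted over all tested genes, and 51.8% of all tested probes were called in SQ20B. The brightest and dimmest probes of a gene were picked by their mean level over all 24 arrays, resistant ones included. A test of the brightest minus the dimmest probe of each gene was added after the probe values were seen. It called 15 of the 34 genes in SQ20B, or 44.1%, against 25.7% of the 3934 tested genes with more than 1 probe. Of the 15, the dimmest probe had the more negative change in 12 and the brightest probe in 3. Of the 1011 genes called among all 3934, these were 681 and 330. In RPL36A, RPL37, RPL39L and RPL41, 4 of these 15 genes, the dimmest probe was below background on every array of at least 1 SQ20B group. With both probes chosen among those detected on all 24 arrays, 10 of 25 member genes were called in SQ20B, or 40%, against 26.4% of 2036 genes, and the difference was over 1 on the log2 scale in 8 of the 25 and 102 of the 2036. In FaDu the test over all probes called 7 of the 34 (13.2% of all genes), in Cal-27 4 (7.3%) and in SCC-25 1 (6.18%). The Cal-27 count was 1 to 2 when any 1 of its 6 arrays was left out and 1 with the authors' processed values.

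**Figure D3:**
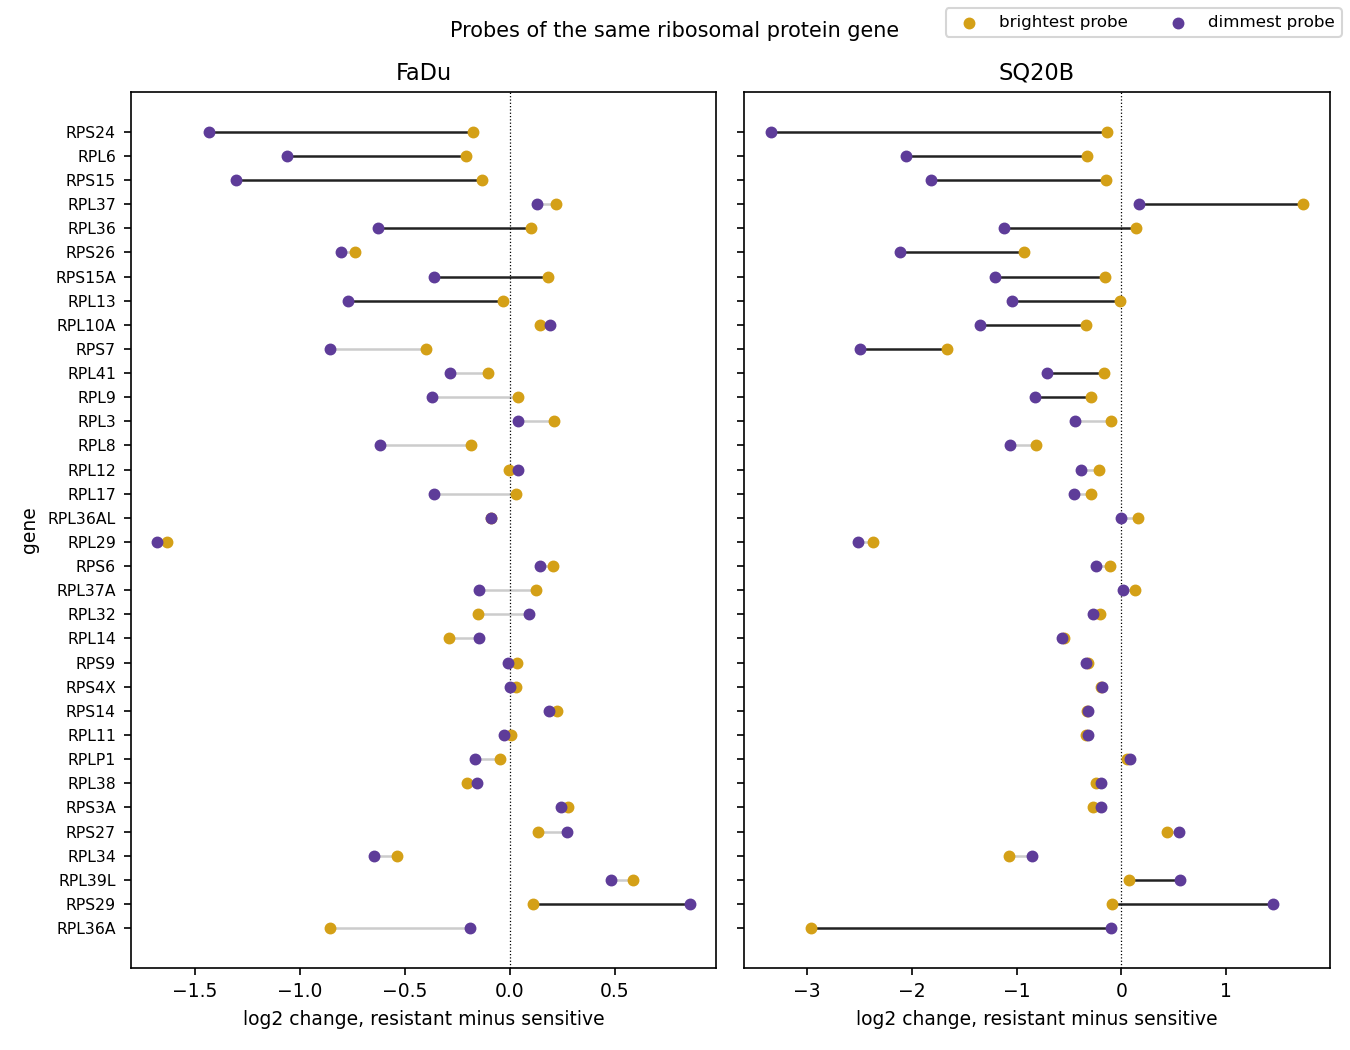
Log2 change between resistant and sensitive cells (horizontal axis) of the brightest and the dimmest probe of each of the 34 ribosomal protein genes with more than 1 probe, in FaDu and SQ20B. A dark line joins probes whose changes differed in limma at an adjusted p under 0.05. RPS24 changed by -3.35 on the dimmest probe and -0.14 on the brightest, and RPL29 and RPS7 fell on both probes in SQ20B.

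Signal strength moved with the change in SQ20B, FaDu and Cal-27. Member probes were bright, with a median percentile of 97.9 among the tested probes and 46 members among the 161 probes whose mean rank was in the top 1%. In SQ20B the 58 brighter members had a median log2 change of -0.174, with 24 lower and 3 higher. The 58 dimmer members had a median of -0.478, with 35 lower and 7 higher. Over all tested probes 25.9% were lower and 25.9% higher in SQ20B. Across the 116 members the correlation of mean level and change was r = 0.412 (Spearman 0.378) in SQ20B. It was 0.453 (Spearman 0.339) in FaDu and 0.337 (Spearman 0.344) in Cal-27. Over all tested probes r was -0.0389, 0.0122 and -0.0464 in these lines. In SCC-25 r was 0.0027 (Spearman -0.0851) across the members. The level was the mean over the 12 arrays of the table, resistant ones included, so a probe that fell also counted as dimmer. The size of that part was not tested. These are descriptions across probes, which share arrays and in part genes. The part of signal strength, and of near-identical copies that can share a probe's signal, in the gap between probes was not tested. Probes labelled with ribosomal protein pseudogenes are not members. Of 31 such probes 22 were tested. In SQ20B 10 of the 22 were lower in limma, against 25.9% of all tested probes, and RPS26P11 was at -0.75.

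**Figure D4:**
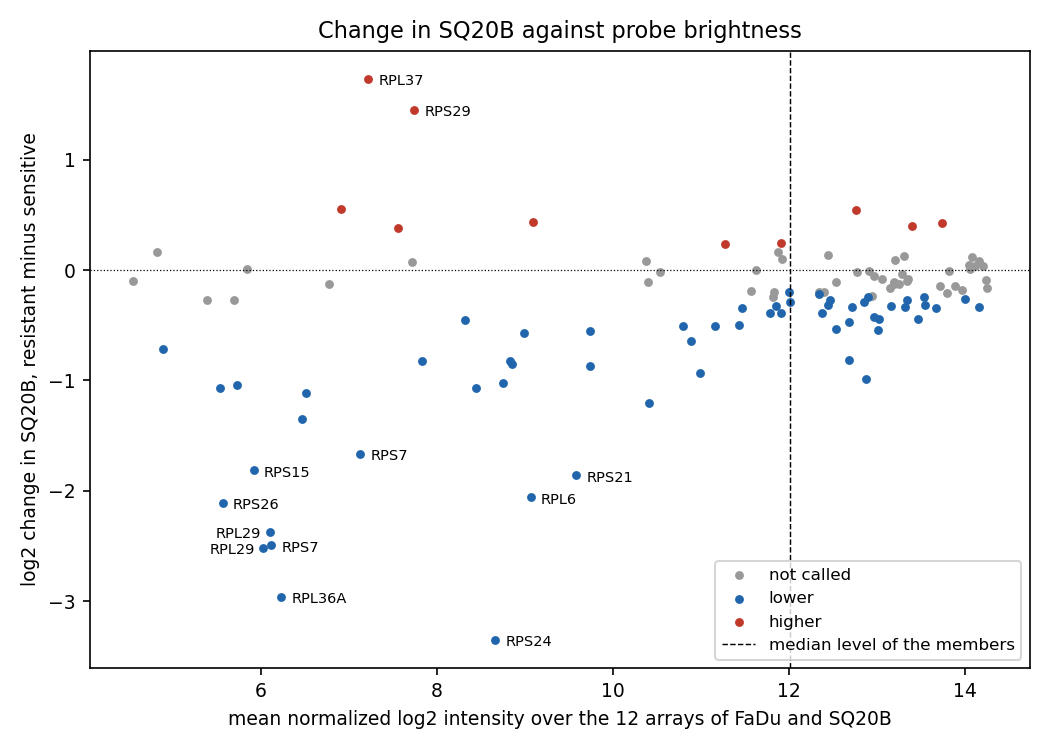
Log2 change in SQ20B, resistant minus sensitive (vertical axis), against the mean normalized log2 intensity over the 12 arrays of FaDu and SQ20B (horizontal axis) for the 116 ribosomal protein probes, coloured by limma's call. Most named decreases lie left of the dashed median level, and the bright probes on the right lie between -0.982 and 0.547.

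In resistant FaDu 21 of the 116 probes were lower and 11 higher, where 20.1% and 18.3% of all tested probes were, 38.4% in either direction. The 21 lower probes are 18.1% of the members, a share close to the background, and the median change was -0.0325 against -0.0282 over all tested probes. All 21 were among the 59 members lower in SQ20B. Over all tested probes, 2492 of the 3853 lower in FaDu were among the 4958 lower in SQ20B. Under median scaling 57 members were lower and 4 higher in FaDu. In that setting 40.7% of all tested probes were called in either direction, and their median was -0.0947.

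The decreases of FaDu were led by probes that were also among the larger decreases of SQ20B. RPL29 read 6.81, 7.02 and 7.30 on ILMN_1737517 in parental FaDu and 5.60, 5.53 and 5.11 in resistant FaDu, and its changes were -1.63 ± 0.14 and, on ILMN_1771051, -1.68 ± 0.12 (limma's adjusted p = 1.67e-06 and 3.25e-07). RPS24 ILMN_2399893 went from 9.38, 9.37 and 9.52 to 8.02, 7.96 and 8.0, a change of -1.43 ± 0.09. At these probes of both genes every resistant array was below every parental array, which was a condition for naming them. RPS15 ILMN_2219131 changed by -1.30, RPL6 ILMN_1717490 by -1.06, RPS21 by -0.93, RPL36A ILMN_2112811 by -0.86, RPS7 by -0.86 and -0.40, and RPS26 by -0.80 and -0.74. The brightest probes RPS24 ILMN_1656625, RPS15 ILMN_2046856 and RPL6 ILMN_1690494 changed by -0.18, -0.13 and -0.21 in FaDu and were not called. In each of these genes the gap between the brightest and the dimmest probe was called. RPS29 ILMN_2298818 rose from 7.59, 7.09 and 7.24 to 8.11, 8.31 and 8.07, a change of 0.86 ± 0.12. RPL39L was higher by 0.59 and 0.48 in log2, RPL22 by 0.49, and RPL13A, which also acts in a translation-silencing complex, by 0.33.

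The resistance change of SQ20B was the more negative of the 2 for many members. In the test of the difference, FaDu minus SQ20B, 39 of 116 probes were higher and 3 lower, where 15.5% and 15.1% of all tested probes were (30.6% in either direction). The median difference was 0.264, against -0.00226 over all tested probes. The largest was RPL36A ILMN_2112811 at 2.11 ± 0.23 (limma's adjusted p = 2.05e-05), followed by RPS24 ILMN_2399893 at 1.92 ± 0.12 and RPS7 ILMN_2070072 at 1.64 ± 0.20. RPL10A differed by 1.54 ± 0.22 on ILMN_1808041 and by 0.48 on ILMN_2154566. RPL37 ILMN_1800796 was the most negative at -1.52 ± 0.15. Only RPS29 ILMN_2415722 and RPS3A ILMN_1657722 were called in opposite directions in the 2 lines, higher by 0.45 and 0.28 in FaDu and lower by 0.38 and 0.27 in SQ20B on the log2 scale.

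In Cal-27 the named probes with the largest changes were RPS29 ILMN_2298818 and the probe of RPS25, both higher. Of the 116 probes 15 were higher and 10 lower, 25 in all or 21.6%, where 14.8% and 16.3% of all tested probes were, 31.1% in either direction. The median change was 0.0712, against -0.0168 over all tested probes. Without each array in turn the 25 calls became 10 to 17, and without Cal-27 sensitive replicate 2 they were 10, without sensitive replicate 3 15, and without resistant replicates 1, 2 and 3 they were 14, 11 and 13. Under median scaling 7 were higher and 10 lower, and under cyclic loess 19 and 8. Of all tested probes 31% and 30.5% were called in these settings, and 25.4 to 26.8% without an array.

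RPS29 ILMN_2298818 read 6.62, 6.55 and 6.57 in parental cells and 7.92, 8.38 and 8.50 in resistant cells, a log2 change of 1.69 ± 0.20 with limma's adjusted p at 2.85e-05. RPS25, which helps the ribosome start on viral and some cellular internal entry sites, read 12.14, 12.26 and 12.28 in parental and 13.02, 12.99 and 13.04 in resistant cells, a change of 0.79 ± 0.08. Neither of these probes overlapped between the groups, which was a condition for naming them. The other RPS29 probes, ILMN_1694742, ILMN_1738243 and ILMN_2415722, changed by 0.04, 0.18 and 0.05 and were not called. RPLP1 ILMN_1689725 rose by 0.55, RPL14 ILMN_1726460 by 0.54, RPS23 by 0.43 and RPL3, which lies close to the peptidyl transferase centre, by 0.34 and 0.24 on its probes ILMN_2319994 and ILMN_2319996.

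Of the 10 lower probes in Cal-27, RPS7 ILMN_2070072 went from 7.53, 7.53 and 7.60 to 6.83, 7.03 and 6.98, a log2 change of -0.61 ± 0.09 with limma's adjusted p at 0.000227. RPS7 ILMN_1750722 changed by -0.56, RPL29 by -0.59 and -0.48, RPL34 by -0.59, RPL13 ILMN_1709039 by -0.56, RPL36 ILMN_1771462 by -0.38, RPL28 by -0.38 and RPL6 ILMN_1717490 by -0.34. The other lower probe, RPL23A ILMN_1788607, changed by -0.26. At the RPS7, RPL29, RPL34 and RPL13 probes given here the parental and resistant groups did not overlap, which was a condition for naming them.

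RPL17 led the decreases and RPS21 the increases in SCC-25. In resistant SCC-25, 18 of the 116 probes were higher and 7 lower, where 13.6% and 14.5% of all tested probes were, 28% in either direction. The median change was 0.0972, against -0.00482 over all tested probes, and the 7 called small-subunit probes were all higher. Fitted on the 6 arrays of SCC-25 alone, 9 probes were higher and 5 lower, 14 in place of 25. Of all tested probes 21.3% were called in that fit.

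RPL17, which lines the tunnel through which the new protein leaves, fell on all 3 of its probes. ILMN_1655422 read 9.41, 9.10 and 9.20 in parental SCC-25 and 7.92, 8.36 and 8.53 in resistant SCC-25, a log2 change of -0.97 ± 0.14 with limma's adjusted p at 0.000233. ILMN_2383097 went from 12.55, 12.71 and 12.58 to 11.89, 11.82 and 12.04, a change of -0.70 ± 0.09. ILMN_1658283 went from 12.21, 12.14 and 12.21 to 11.62, 11.62 and 11.67, a change of -0.55 ± 0.08. None of the 3 probes overlapped between the groups, which was a condition for naming them.

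RPL39L, a paralog of RPL39 that is best known from the testis, changed by -0.52 and -0.28 in SCC-25, and RPL39 itself by 0.48. RPL5, which carries the 5S RNA and with RPL11 can inhibit MDM2, changed by -0.33, and RPL32 ILMN_2400143 by -0.35. RPS21 rose from 10.07, 10.36 and 10.45 to 11.00, 11.06 and 11.04, a change of 0.73 ± 0.11 with limma's adjusted p at 0.000241. RPS26 ILMN_1755664 was higher by 0.64, RPS24 ILMN_2399893 by 0.48, RPS15A by 0.47, 0.39 and 0.31 on 3 probes, RPL38, known in mice for the translation of Hox mRNAs, by 0.43 and 0.30, and RPL9 by 0.43, 0.41 and 0.30 in log2. The brighter probes RPS24 ILMN_1656625 and RPS26 ILMN_2209027 changed by 0.08 and 0.17 and were not called.

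The changes of SCC-25 and Cal-27 differed at 20 probes, 10 in each direction, where 30.6% of all tested probes were called. RPS29 ILMN_2298818 had the largest, at -2.08 ± 0.28 (SCC-25 minus Cal-27, limma's adjusted p = 0.000118). RPL13 ILMN_1709039 was the 1 member called in opposite directions, with 0.38 in SCC-25 and -0.56 in Cal-27 and a difference of 0.94 ± 0.19 (limma's adjusted p = 0.00217). RPL17 differed by -0.89, -0.70 and -0.56, and RPS7 by 0.87 and 0.75.

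RPL13 ILMN_1709039 was the 1 member called in all 4 lines, higher in SCC-25 and lower in the others, where 1033 of the 19171 tested probes were called in all 4. In Cal-27, FaDu and SQ20B together 8 member probes were lower, or 6.9%, against 5.36% of all tested probes. They were both RPL29 probes, both RPS7 probes, RPL6 ILMN_1717490, RPL13 ILMN_1709039, RPL34 ILMN_1774823 and RPL36 ILMN_1771462. RPS29 ILMN_2298818, RPS27 ILMN_1696839 and RPL13A ILMN_1713369 were higher in those 3 lines, and 2.59% of the members were higher in at least 3 lines against 7.34% of all tested probes, although the FaDu change of that RPS27 probe was -0.00711 and the SQ20B change of RPL13A -0.292 under median scaling. As a description over 116 probes, the changes of FaDu and SQ20B correlated at r = 0.832 (Spearman 0.62), against r = 0.545 over all tested probes. Those of Cal-27 with FaDu and SQ20B correlated at r = 0.572 and 0.542 (Spearman 0.456 and 0.361), against 0.269 and 0.23 over all tested probes. Those of SCC-25 with the others lay between -0.301 and -0.135 (Spearman -0.236 to -0.0873), against 0.0571 to 0.164 over all tested probes. FaDu and SQ20B share a normalization, as do SCC-25 and Cal-27, but no control arrays.

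Parental lines also differed at member probes, at shares not far from those of all tested probes. Between parental SCC-25 and Cal-27, 28 members were higher and 27 lower in SCC-25. That was 47.4% of the members, below the 53% called over all tested probes. Between parental FaDu and SQ20B, 20 members were higher and 49 lower in FaDu, or 59.5% in either direction. Of all tested probes 52.9% were called, 27.8% higher and 25.1% lower.

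RPL39L separated parental FaDu from parental SQ20B. ILMN_2108357 read 9.48, 9.67 and 9.57 in FaDu and 5.58, 5.38 and 5.64 in SQ20B, a log2 difference of 4.04 ± 0.10 with limma's adjusted p at 3.63e-12. ILMN_1712413 read 8.67, 8.63 and 8.73 in FaDu and was above background on no parental SQ20B array, which gives at least 13.6-fold higher signal in FaDu. RPL39L was at 11.02, 11.11 and 10.99 in parental SCC-25 and 10.76, 10.74 and 10.66 in parental Cal-27, so SQ20B was the line with the lowest reading, with levels set across separately normalized tables and not tested.

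RPS23 was the next largest. Its 1 probe read 7.56, 7.44 and 7.72 in parental FaDu and 10.37, 10.42 and 10.33 in parental SQ20B, a difference of -2.80 ± 0.09 (limma's adjusted p = 4.07e-11). It read 6.64, 6.31 and 6.07 in parental SCC-25 and 8.99, 8.87 and 8.79 in parental Cal-27, a difference of -2.54 ± 0.15 (limma's adjusted p = 1.02e-08). Within each table the 2 lines did not overlap. RPL28 was lower in FaDu than in SQ20B by a log2 difference of -2.38, RPL14 ILMN_2404850 by -2.28 and RPL36A ILMN_2112811 by -1.97. RPL7A (0.56) and RPL34 ILMN_1774823 (0.54) were higher in FaDu. RPL9 ILMN_1729033 (-1.26), RPS3 (-1.05) and RPL36 ILMN_1771462 (-0.96) were lower in SCC-25 than in Cal-27, and RPL34 (0.92), RPL5 (0.87), RPS25 (0.82) and RPL36AL ILMN_2189936 (0.79) were higher.

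The stalk proteins RPLP1 and RPLP2, which recruit elongation factors, had 4 probes. They gave 1 call over the 4 lines, RPLP1 ILMN_1689725 in Cal-27, and lay between 0.039 and 0.0907 in SQ20B. That SQ20B range depends on the normalization, since RPLP1 ILMN_2247594 and ILMN_2386530 and RPLP2 turned under median scaling, to -0.33, -0.374 and -0.269. The paralogs RPL36AL, RPL39L and RPS27L, a p53 target, had 5 probes, of which 2 were lower in SCC-25, 2 higher in FaDu and 1 higher in SQ20B. Over all tested probes 28%, 38.4% and 51.8% were called in these lines, in either direction. The SQ20B call was RPL39L ILMN_1712413, above background on no parental SQ20B array, which gives at least 1.21-fold higher signal. The other RPL39L probe, ILMN_2108357, changed by 0.07 there and was not called. RPS4X, encoded on the X chromosome, was called on 1 of its probes in SQ20B only, at -0.19.

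Genes that build and use the ribosome were described beside the members, in lists chosen with earlier results of these data known. Of all tested probes 25.9% were lower and 25.9% higher in SQ20B, and 20.1% and 18.3% in FaDu. These shares were 16.3% and 14.8% in Cal-27, and 14.5% and 13.6% in SCC-25. Ribosome assembly and nucleolar factors had 72 probes, of which 59 were lower and 3 higher in SQ20B (median -0.853), 50 lower in FaDu (median -0.475), 37 lower and 1 higher in Cal-27 (median -0.354) and 7 lower and 8 higher in SCC-25 (median -0.00892). BOP1, a factor of large-subunit maturation, changed by -2.07 ± 0.08 in SQ20B, and NOLC1, a nucleolar chaperone, by -1.72 in SQ20B and -0.97 in FaDu (limma). BYSL, a factor of small-subunit export, changed by -0.98 in FaDu and PPAN by -0.99 in Cal-27. TAF1D of the same list was called higher in SQ20B and in Cal-27. Mitochondrial ribosomal proteins had 106 probes, of which 77 were lower and 2 higher in SQ20B, 61 and 3 in FaDu, 26 and 3 in Cal-27 and 8 and 9 in SCC-25, where the median was 0.0748. MRPL11 changed by -1.86 in SQ20B and -1.07 in FaDu, and MRPL12 by -1.60 in SQ20B and -0.68 in Cal-27. MRPL43 was called higher in SQ20B and in Cal-27.

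Other genes whose mRNAs carry a 5′ TOP start, among them elongation factors, had 35 probes, of which 23 were lower in SQ20B, 16 lower and 2 higher in FaDu, 2 lower and 1 higher in Cal-27 and 3 lower and 9 higher in SCC-25. HNRNPA1, an RNA-binding protein, changed by -1.99 and -1.44 in SQ20B, and EEF1B2, an elongation factor subunit, by -0.80 in FaDu. VIM, the intermediate filament protein vimentin, led this list in SCC-25 with -1.50 and -1.34, and NAP1L1, a histone chaperone, rose there by 0.88 and 0.57. Regulators of ribosomal protein synthesis had 26 probes with 9 lower and 6 higher in SQ20B. TSC1, an inhibitor of mTORC1 signalling, was higher on both probes by 1.04 and 0.72 in SQ20B, 0.60 and 0.45 in FaDu and 0.53 and 0.42 in Cal-27, and changed by -0.36 and -0.52 in SCC-25, on the log2 scale. EIF4E, which binds the cap, changed by -1.13 and EIF4G1 by -1.10 in SQ20B. MYC was higher by 0.52 in FaDu, 0.37 in Cal-27 and 0.31 in SQ20B, and RHEB, the activator of mTORC1, changed by -0.91 in Cal-27 and 0.48 in SQ20B. Ribosomal proteins with names outside the rule had 6 probes, with 4 lower in SQ20B, and RPL7L1 was called in both directions there on different probes, at 0.67 and -0.59.

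**Figure D5:**
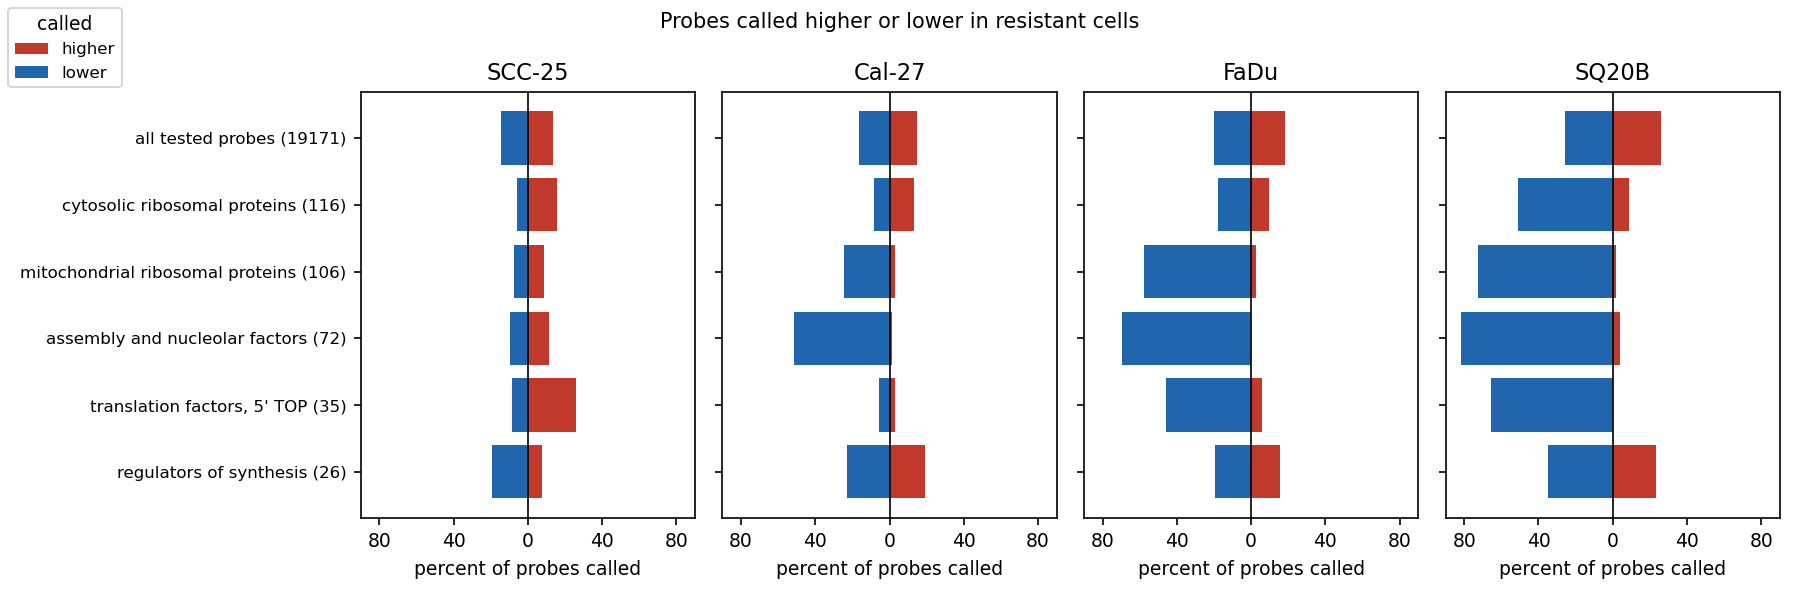
Percent of probes called higher (right, red) or lower (left, blue) in resistant cells in each line for all tested probes, the cytosolic ribosomal proteins and 4 comparison lists, with the number of probes in brackets. In SQ20B 59 of 116 cytosolic, 77 of 106 mitochondrial and 59 of 72 assembly probes were lower.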

How the data were processed

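Total RNA of 24 samples was labelled and hybridised to Illumina bead arrays, per the labels' protocols. The authors deposited mean bead intensity values, without normalization, in 2 tables of 12 arrays, with a detection p-value and the number of beads beside each intensity, per the file headers. The submitters' processing notes name GenomeStudio without a version. A table of processed intensity values, also deposited by the authors, served as an alternative.

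Background was corrected by normexp from the detection p-values with an offset of 16, followed by quantile normalization and log2 within each table (limma 3.58.1, R 4.3.3). Levels are the resulting log2 intensities. The platform annotation gave 1 symbol to 30113 of 47231 probes and several to 8, and it does not list 17110. The 19171 with 1 symbol and a detection p under 0.05 on at least 3 arrays were tested with lmFit and eBayes, 4 groups to a fit with 8 residual degrees of freedom, and Benjamini-Hochberg adjustment over all of them. Changes are given ± SE of the fit with n = 3 arrays per group. The code was tested on simulated data. The number of arrays limits the precision.

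Members and lists were chosen with earlier results of these data known. Probes named with values are, per line, the 6 highest and 6 lowest called members whose groups did not overlap, members opposite between the 2 lines of a table, the 4 highest and 4 lowest per parental comparison, paralogs, stalk proteins, other probes of those genes, and up to 2 called probes per comparison list, line and direction. RPL10A, RPL11, RPL23A, RPL41 and RPS26P11 are named beyond this rule, after their values were seen. Not every list probe that the rule picks is given with its value. The values given for the assembly and mitochondrial lists are all decreases. Probe sequences and proteins were not used here, and transcript starts are from RefSeq, GRCh38.p14. All value columns were matched to samples by name, with 0 left over.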

Additional observations from a re-analysis of the deposited data

Results flagged for a closer look

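The resistance change differed between the lines of a table, by limma's test of the difference, at 20 ribosomal protein probes for SCC-25 against Cal-27 and at 42 for FaDu against SQ20B. Differences are on the log2 scale, the first line's change minus the second's.

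For SCC-25 minus Cal-27, the named probes with a positive difference were RPL13 (0.942), RPS21 (0.883), RPS7 (0.868 and 0.755), RPS26 (0.845), RPL34 (0.757) and RPS24 (0.569). Those with a negative difference were RPS29 (-2.08), RPL17 (-0.887, -0.696 and -0.558), RPL39L (-0.685 and -0.359), RPLP1 (-0.646), RPS25 (-0.611) and RPL5 (-0.456).

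For FaDu minus SQ20B, positive differences were found at RPL36A (2.11), RPS24 (1.92), RPS7 (1.64 and 1.27), RPL10A (1.54 and 0.479), RPS26 (1.31), RPL6 (0.996), RPS21 (0.933), RPS15A (0.841), RPL29 (0.84 and 0.74), RPS29 ILMN_2415722 (0.839), RPL23A (0.773), RPS3A (0.55), RPL34 (0.532), RPL39L (0.514) and RPS15 (0.513). RPL29 ILMN_1771051 was above background on no resistant SQ20B array, so its 0.84 is a fitted value and not a measured size. The same holds in part for the 1.31 of RPS26 ILMN_1755664, above background on 1 of the 3 resistant SQ20B arrays. Negative ones were RPL37 (-1.52), RPS29 ILMN_2298818 (-0.595) and RPS23 (-0.37).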

How the results depend on the processing

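With 3 arrays a group, dim probes and a narrow range at the top of the scale limit what can be seen. Counts below are called ribosomal protein probes, medians are their median log2 changes, and the cause of each move was not tested unless stated. Median scaling gave medians of 0.144, 0.0274, -0.255 and -0.696, in the order SCC-25, Cal-27, FaDu, SQ20B, a count of 61 in FaDu and 64 for FaDu minus SQ20B. The share of higher calls then fell from 60 to 41.2% in Cal-27, from 34.4 to 6.56% in FaDu and from 14.5 to 2.94% in SQ20B, and for SCC-25 minus Cal-27 went from 50 to 64%. Cyclic loess gave medians of 0.0771, 0.122, -0.00114 and -0.126 in that order, with 70.4% of Cal-27 calls and 31.2% of SQ20B calls higher. Without background correction the medians were 0.0773 in SCC-25 and -0.232 in SQ20B, and the counts for SCC-25 minus Cal-27 and FaDu minus SQ20B were 34 and 65. The trended test gave 33 for SCC-25 minus Cal-27, array weights a SQ20B median of -0.257, and the 6 arrays of SCC-25 alone 14 calls. With the brightest probe of each gene, so that fewer probes are counted, the calls were 12, 15, 16 and 39 in SCC-25, Cal-27, FaDu and SQ20B, 10 for SCC-25 minus Cal-27, and 32 and 42 between the parental lines of each table, with a SQ20B median of -0.174. With the mean of a gene's probes there were 14 calls in SCC-25 and 35 and 44 between parental lines, and medians of 0.0855 in Cal-27 and -0.267 in SQ20B. The gap between brightest and dimmest probe was called at 2 genes in SCC-25 without background correction, 2 with an offset of 50 and 0 with the authors' processed values, and at 1 in Cal-27 with those values.

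Median scaling turned the sign of RPL17 ILMN_2383097 (-0.261), RPLP1 ILMN_2386530 (-0.267), RPS4X (-0.243) and RPS27 (-0.00711 and -0.016) in FaDu. In SQ20B it turned RPL39 (-0.366), RPL22 (-0.206), RPL13A (-0.292), RPS27 (-0.0862 and -0.114), RPL36AL (-0.346), RPLP1 (-0.33 and -0.374), RPLP2 (-0.269), RPL36 ILMN_1685088 (-0.389) and RPS29 ILMN_1738243 (-0.249). Cyclic loess turned RPL6 ILMN_1690494 (0.0261) and RPS29 ILMN_1694742 (0.275) in SQ20B.

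Without 1 array at a time, the counts were 18 to 28, 10 to 17, 27 to 30 and 61 to 67 in the same order, 16 to 26 for SCC-25 minus Cal-27 and 32 to 43 for FaDu minus SQ20B, and 47 to 55 and 62 to 67 between parental lines. The medians were 0.0763 to 0.0983, 0.0554 to 0.0802, -0.055 to -0.0121 and -0.273 to -0.233 in that order too. The probe gap was called at 1 to 1, 1 to 2, 5 to 8 and 13 to 14 genes.

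With the replicate number as a block the counts were 22, 20, 30 and 65 in the lines, 20 and 38 for the differences between lines and 53 and 68 between parental lines. Same-numbered arrays correlated between -0.0675 and 0.0781 in 12 pairs, so the numbers were not taken as a pairing. A slide block was not run because the files name no slide.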
